A study of Gossypium hirsutum with 9 samples.

Results

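Mitogen-activated protein kinases (MAPKs) and the MAPK kinases (MAPKKs) that switch them on were examined in fibres of upland cotton (Gossypium hirsutum) in which the transcription factor gene GhWRKY16 is targeted by RNA interference. The genes were taken by the symbol that the deposited expression table writes in brackets after each identifier: MPK, MMK, NTF, MKK, M2K or MAPK followed by a number. This rule found 96 of 70478 genes, with 23 different symbols. Of these, 59 carried a MAPK symbol and 27 a MAPKK symbol. The other 10 carried the symbol NTF2, which is also the name of nuclear transport factor 2, a carrier of the small GTPase Ran. The file does not say which protein is meant, so the NTF2 genes are described apart and the word kinase here means the remaining 86 genes. A symbol names a related gene of some plant, such as Arabidopsis, tobacco (NTF) or alfalfa (MMK), and several cotton genes share each one.

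The samples were fibres, the single-celled hairs that grow from the seed coat, at 9 days post anthesis (DPA) from field-grown plants. The groups were GhWRKY16 RNAi plants (6 labelled samples, of which replicates 2 to 6 were analysed and replicate 1 was not analysed here) and wild-type (WT) plants (3 samples). The promoter of the construct and the number of transgenic lines are not in the labels, nor is it stated that replicates were different plants. The p-values therefore rest on library-to-library spread, part of which may be technical. The silenced gene could not be told from other WRKY genes by its symbol, so its own level is not given. The comparison asked whether transcripts of the cascade, whose kinases are known to act on WRKY factors, differed between RNAi and WT.

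In plants a MAPK cascade passes a signal through 3 kinases in a row. A MAPKK kinase (MAPKKK) phosphorylates a MAPKK, the MAPKK phosphorylates a MAPK, and the MAPK phosphorylates its targets, among them WRKY factors. Arabidopsis MAPKKs and MAPKs are each sorted by sequence into groups A to D. In Arabidopsis, MKK4 and MKK5 act on the group A kinases MPK3 and MPK6 in defence and development, and MKK1 and MKK2 act on MPK4. MKK6 acts on MPK4 in cell division, where the tobacco counterparts of MPK4 include NTF6. MKK3 acts on the group C kinases, and MKK7 and MKK9 belong to group D. Activity is set mainly by phosphorylation, which transcript levels do not show.

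Expression was given as FPKM, a fragment count scaled to transcript length and sequencing depth, so that levels can be set side by side between genes. Relative depth, estimated from low values, ran from 0.366 (RNAi replicate 4) to 2.19 (RNAi replicate 5) of that of WT replicate 1. Only relative depth can be had, which allows no interval for counting error. The fibre protein gene symbol E6 (6 genes) summed to 30949 to 39487 FPKM in RNAi and 36116 to 39200 FPKM in WT. RBCS, which marks green tissue (8 genes, 1 of them at 0 in every library), summed to 7.80 to 12.2 FPKM in RNAi and 2.02 to 4.40 FPKM in WT. The whole list of green tissue markers (251 genes, 73 at 0 in every library) summed to 593 to 1389 FPKM in RNAi and 936 to 1117 FPKM in WT. The list of fibre markers (179 genes, 34 at 0) summed to 63172 to 76977 FPKM in RNAi and 70192 to 74106 FPKM in WT. By gene, the fibre markers leaned towards RNAi. Of the 89 tested as described below, 68 had a positive log2 fold change (RNAi minus WT) and 21 a negative one. The median was 0.20, beside -0.02 over all tested genes. RNAi libraries all lay above WT in 7 of the 89 (7.87%, beside 1.72% of all tested genes) and all below in 1 (beside 2.35%). None passed at an adjusted p under 0.05 by limma. Without other proteins of like symbol (172 genes), 66 of 83 tested genes were positive, with a median of 0.27. By gene, the whole list of green tissue markers leaned the other way, unlike the RBCS sum. Of 71 tested, 26 were positive and 45 negative, with a median of -0.12. By limma, 12 (16.9%, beside 5.86% of all tested genes) had an unadjusted p under 0.05, and none passed. RNAi libraries all lay above WT in 3 (4.23%, beside 1.72%) and all below in 4 (beside 2.35%). Seed storage markers (31 genes, 10 at 0) summed to 194 to 549 FPKM in RNAi and 273 to 453 FPKM in WT. The part of these markers in the kinase values was not tested. In bulk tissue, fewer cells of a type and less RNA per cell cannot be told apart.

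Fibres at this stage carried transcripts of all MAPK groups and of MAPKK groups A to C, while MAPKK group D was nearly silent. A gene was tested if it reached at least 1 FPKM in at least 3 libraries. Of the 86 kinases, 55 met this (43 MAPKs and 12 MAPKKs), and 31 did not. All 96 genes together left 35 untested, of which 12 were listed at 0 in every library and 23 had values of at most 1.92 FPKM. The 12 include all 6 genes that lie on unplaced scaffolds. In all, 45 of the 96 genes lay on A chromosomes and 45 on D chromosomes. The MAPK genes summed to 416 ± 22.04 FPKM in RNAi (SD, n = 5) and 416 ± 28.6 FPKM in WT (SD, n = 3), and the MAPKK genes to 124 ± 11.8 FPKM in RNAi and 113 ± 10.4 FPKM in WT. These sums differed between groups by less than 1 SD of the RNAi libraries. MAPKs held between 75.5% and 79.4% of the kinase FPKM in each library.

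Among the MAPKKs, MKK2 stood far above the rest. The group A kinases MKK2 and MKK6 summed to 90.5 ± 9.55 FPKM in RNAi and 81.6 ± 8.75 FPKM in WT. Most of this came from the MKK2 pair Gh_A06G0660 and Gh_D06G0748. Gh_A06G0660 had 35.9, 28.8, 31.4, 26.2 and 23.5 FPKM in RNAi replicates 2 to 6 and 23.6, 31.5 and 29.6 FPKM in WT replicates 1 to 3. Gh_D06G0748 had 34.6, 27.2, 32.2, 26.6 and 25.8 FPKM in RNAi and 23.1, 29.8 and 26.5 FPKM in WT. The groups overlapped in both genes, with RNAi replicate 2 highest and WT replicate 1 lowest in the D gene. Another MKK2 gene, Gh_A07G0124, averaged 14.4 ± 2.63 FPKM in RNAi and 13.5 ± 0.194 FPKM in WT. MKK3, which is alone in group B, was expressed from an A and a D gene at 7.80 and 6.22 FPKM over all libraries. MKK4 of group C was expressed from 3 genes with means of 3.96 to 7.33 FPKM, while the only gene named MKK5, on a scaffold, was listed at 0 throughout. The 9 genes of group D, named MKK7, MKK9 and MKK10, summed to 1.62 ± 0.297 FPKM in RNAi and 0.693 ± 0.638 FPKM in WT, and 4 of them were at 0 in every library.

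Among the MAPKs the most abundant gene was Gh_D11G0464 (MPK7), a member of group C, which lay above 86.4% of all tested genes. It had 32.4, 32.0, 44.4, 32.5 and 49.2 FPKM in RNAi and 39.2, 42.2 and 50.1 FPKM in WT. Its A counterpart Gh_A11G0401 (MPK7) had 20.6, 20.4, 35.7, 21.6 and 46.3 FPKM in RNAi and 30.9, 29.5 and 41.0 FPKM in WT. In both genes RNAi replicates 4 and 6 stood above the other RNAi libraries, and WT replicate 3 was the highest of the WT libraries. The groups overlapped. The other 4 tested MPK7 genes averaged between 1.595 and 3.18 FPKM, so the symbol covers genes that differ in level by more than 10-fold. Of group C, NTF3 added 4 tested genes with means of 1.23 to 17.3 FPKM, and both genes named MPK2 were at 0 in every library.

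Group A, the branch of MPK3 and MPK6, held 8 tested genes. No gene carried the symbol MPK6, and its place is taken by MMK1 of alfalfa and NTF4 of tobacco, which are known as close relatives of MPK6. Gh_D03G1283 (MPK3) had 23.8, 23.0, 21.0, 25.7 and 21.95 FPKM in RNAi and 25.4, 22.5 and 27.0 FPKM in WT. Gh_A03G0759 (NTF4) had a mean of 20.5 FPKM over all libraries, and Gh_D02G0105 (MMK1) 18.4 ± 1.27 FPKM in RNAi and 18.3 ± 3.02 FPKM in WT. Group B was carried by 6 tested MPK4 genes, with means from 2.61 to 12.7 FPKM, and by the NTF6 genes at 10.99 and 6.74 FPKM. Group D, whose members carry the sequence TDY in place of TEY in the activation loop, held the most tested genes, 17. Both MPK16 genes stood highest in it, at 21.9 FPKM for Gh_A02G0240 and 21.0 FPKM for Gh_D02G0309. Group D summed to 141 ± 4.95 FPKM in RNAi and 137 ± 5.37 FPKM in WT, against 111 ± 16.4 FPKM in RNAi and 105 ± 5.86 FPKM in WT for group A.

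**Figure D1:**
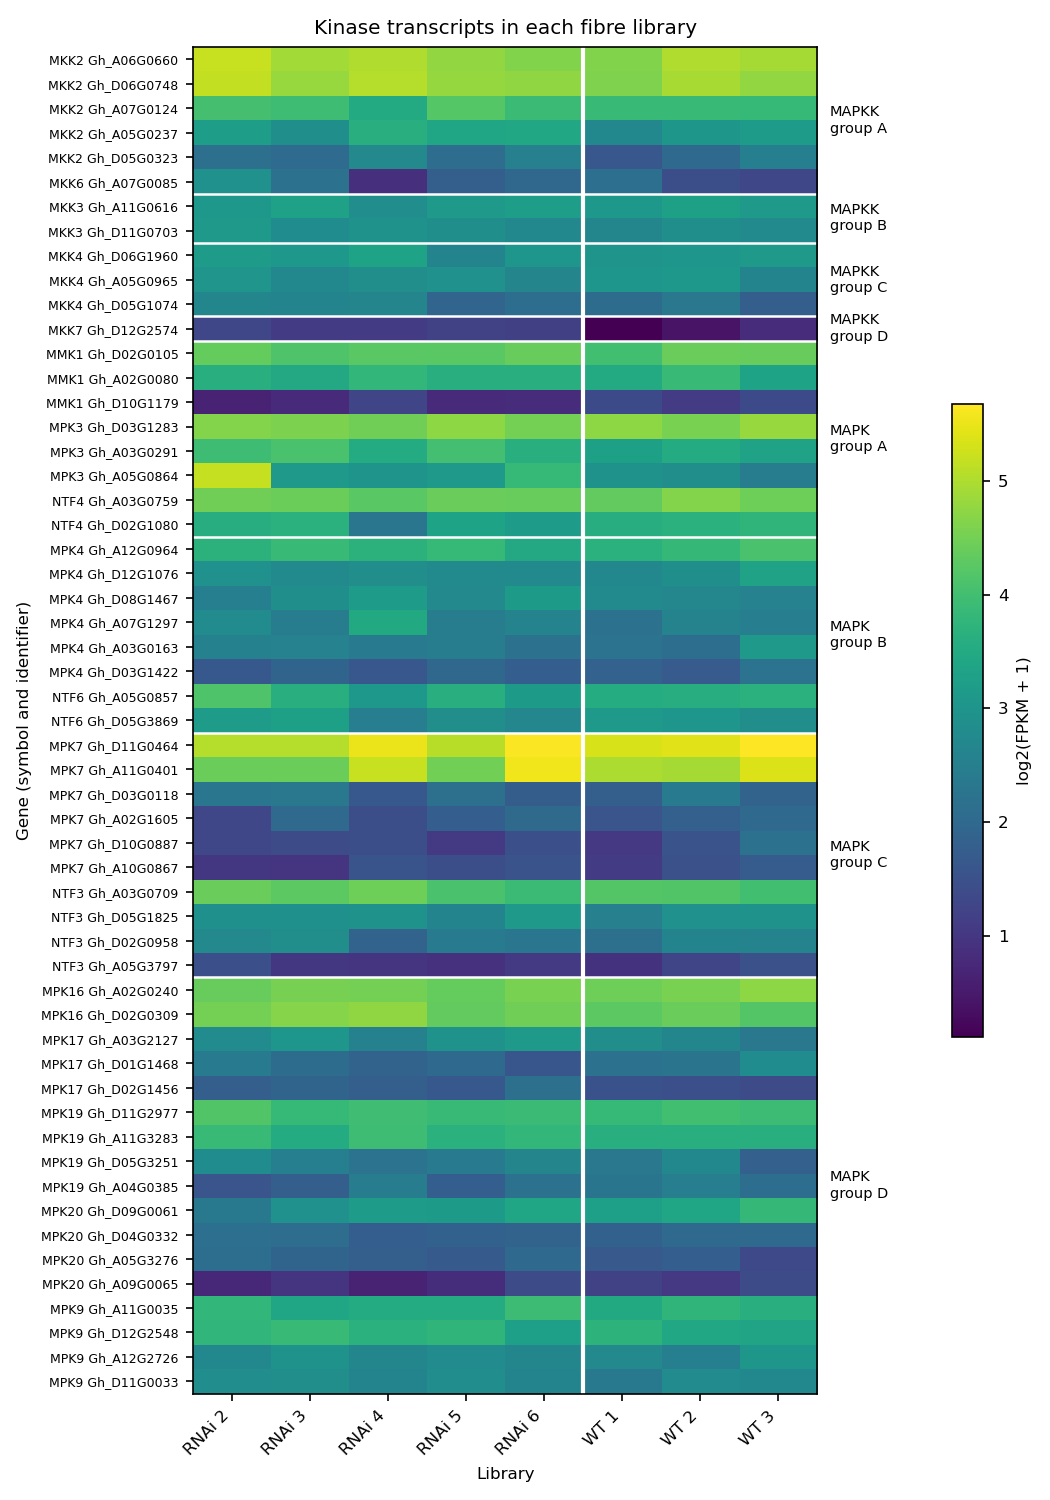
Level of each of the 55 tested kinases as log2(FPKM + 1) (colour), by gene (rows, in MAPKK and MAPK groups A to D) and library (columns, RNAi replicates 2 to 6 left of WT replicates 1 to 3). The MPK7 genes Gh_D11G0464 and Gh_A11G0401 and the MKK2 genes Gh_A06G0660 and Gh_D06G0748 are bright in every library, and Gh_A05G0864 (MPK3) is bright in RNAi replicate 2, where it had 35.5 FPKM.

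No MAPK or MAPKK gene passed the threshold between RNAi and WT. The test was limma on log2(FPKM + 1) with Benjamini-Hochberg adjustment over all 34051 tested genes, at an adjusted p under 0.05. Of all tested genes, 27 rose (0.0793%) and 30 fell (0.0881%), and of the 61 tested genes under the rule, NTF2 included, 0 rose and 0 fell. The lowest adjusted p among them was 0.444. At an unadjusted p under 0.05 there were 3 of 61 (4.92%), beside 5.86% of all tested genes. The 3 were Gh_A03G0291 (MPK3), Gh_D02G1456 (MPK17) and Gh_D12G2574 (MKK7). Log2 fold changes (RNAi minus WT) were positive in 28 and negative in 27 of the 55 tested kinases, beside 46.4% positive over all tested genes. The median of the kinases was 0.01, beside -0.02 over all tested genes, and the kinases ranged from -0.48 to 0.88. All 6 tested group A MAPKKs were positive (0.04 to 0.32), and 7 of 10 group C MAPKs were negative (-0.28 to 0.11). None of these 16 passed the test.

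How large a change could be told was read from the 95% interval of each fold change. All folds here are on the log2(FPKM + 1) scale, which understates changes of low genes. For the 6 tested kinases averaging under 2 FPKM, the interval therefore does not bound the change in FPKM itself. On this scale the interval lay within a 2-fold change in either direction for 51 of 55 kinases (92.7%), and for 88.4% of all tested genes. It lay within 1.5-fold for 30 of the 55. The 4 kinases whose interval reached past 2-fold were Gh_A05G0864 (MPK3, -0.14 to 1.89), Gh_D12G2574 (MKK7, 0.31 to 1.13), Gh_A07G0085 (MKK6, -0.57 to 1.21) and Gh_D02G1080 (NTF4, -1.08 to 0.16). Among the abundant genes, the log2 fold change was -0.21 (95% interval -0.60 to 0.17) for Gh_D11G0464 (MPK7) and -0.28 (-0.90 to 0.33) for Gh_A11G0401 (MPK7). Without WT replicate 3 these fell in size to -0.11 for Gh_D11G0464 and -0.14 for Gh_A11G0401. Gh_A11G0401 stood at -0.19 without RNAi replicate 2, -0.18 without RNAi replicate 3 and -0.47 without RNAi replicate 6. The log2 fold change was 0.14 (-0.17 to 0.45) for Gh_D06G0748 (MKK2), 0.04 (-0.30 to 0.39) for Gh_A06G0660 (MKK2), -0.11 (-0.36 to 0.14) for Gh_D03G1283 (MPK3) and -0.11 (-0.35 to 0.14) for Gh_A02G0240 (MPK16). The sign for Gh_A06G0660 turned with array weights and without RNAi replicate 2 or WT replicate 1. The other 3 kept their sign but moved by more than 1.5 times with single libraries left out, to between 0.05 and 0.23 for Gh_D06G0748, between -0.18 and -0.05 for Gh_D03G1283 and between -0.17 and -0.03 for Gh_A02G0240. Within groups, the median coefficient of variation over the 55 kinases was 17.6% in RNAi and 17.2% in WT.

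**Figure D2:**
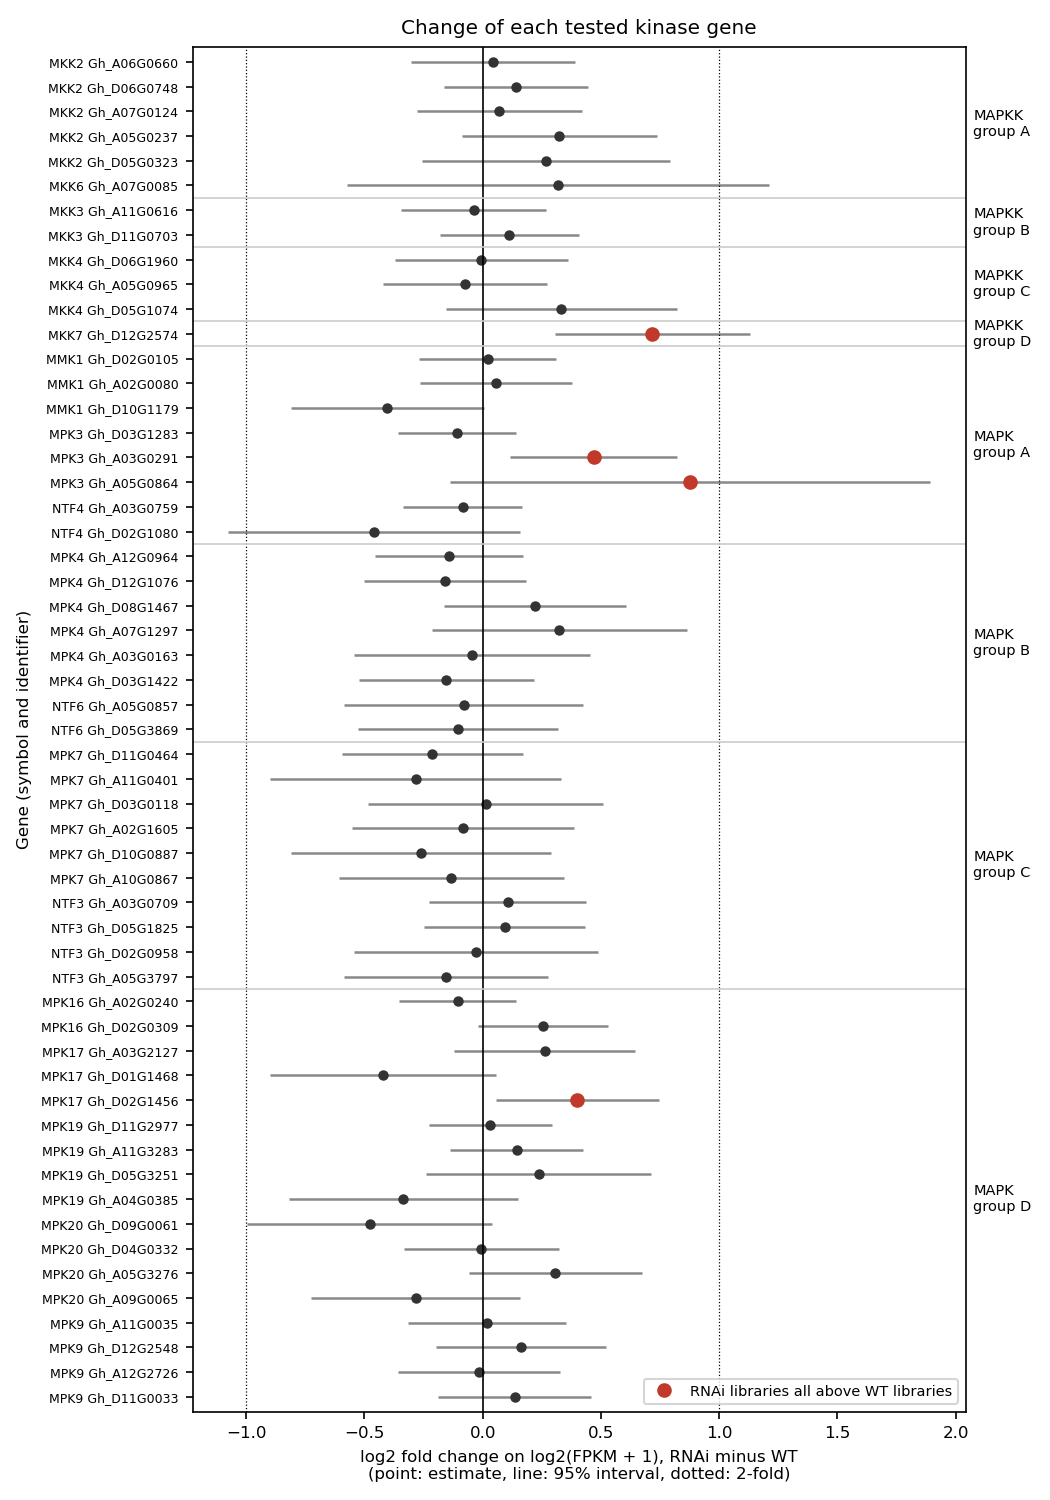
Log2 fold change, RNAi minus WT, on the log2(FPKM + 1) scale (points) with its 95% interval (lines) for the 55 tested kinases, ordered by MAPKK and MAPK group. Dotted lines mark a 2-fold change on that scale, which 51 of the 55 intervals stay within. Red points mark the 4 genes whose RNAi libraries all lay above the WT libraries.

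The RNAi libraries all lay above the WT libraries in 4 of the 61 tested genes (6.56%), beside 1.72% of all tested genes, and all below them in 0, beside 2.35%. Of the 4, only MKK7 passed the filter on low values through its RNAi libraries alone, so the count is given as a description. The 4 were Gh_A03G0291 and Gh_A05G0864 (both MPK3), Gh_D02G1456 (MPK17) and Gh_D12G2574 (MKK7).

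MPK3, which responds to pathogens and wounding in Arabidopsis, was expressed from 3 genes, none of which passed the test. Gh_A03G0291 (MPK3) had 14.5, 15.9, 10.62, 15.2 and 11.3 FPKM in RNAi and 8.61, 10.54 and 8.99 FPKM in WT. The groups stood close, with RNAi replicate 4 only just above WT replicate 2. In Gh_A03G0291 the log2 fold change came to 0.47 ± 0.16 (SE; limma adjusted p = 0.754). Gh_A05G0864 (MPK3) had 35.5, 7.58, 6.996, 7.65 and 13.3 FPKM in RNAi and 6.85, 6.28 and 4.56 FPKM in WT. Here RNAi replicate 2 alone stood far above the rest, and RNAi replicate 4 was just above WT replicate 1. That of Gh_A05G0864 was 0.88 ± 0.45 (SE; limma adjusted p = 0.864), and without RNAi replicate 2 it was 0.49. Gh_D03G1283 (MPK3), the most abundant of the 3, overlapped between groups. The remaining MPK3 genes were nearly or wholly silent, Gh_D05G3876 with at most 0.440 FPKM and a scaffold gene with 0 in every library.

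Gh_D12G2574 (MKK7) had 1.47, 1.0975, 1.1, 1.29 and 1.23 FPKM in RNAi and 0.0805, 0.320 and 0.758 FPKM in WT. In Arabidopsis MKK7 is known for roles in defence and auxin transport. The RNAi libraries lay close together and above the WT libraries, which differed among themselves by more than the RNAi libraries did. RNAi exceeded WT by 0.72 ± 0.18 on the log2 scale (SE; adjusted p = 0.444 by limma), on a scale that understates changes of so low a gene. The gene lay above only 1.603% of tested genes. Its neighbour by identifier, Gh_D12G2575 (MKK7), and the pair on A01 and D01 were at 0 in every library. Gh_A12G2448 (MKK9), also of group D, was too low to be tested. It had 0.128, 0.220, 0.440, 0.147 and 0.724 FPKM in RNAi and was listed at 0 in all 3 WT libraries, so no fold is given. In Arabidopsis MKK9 acts in ethylene signalling and leaf senescence. It is named here after its values were seen.

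Gh_D02G1456 (MPK17) had 2.46, 2.74, 2.45, 2.11 and 3.49 FPKM in RNAi and 1.84, 1.78 and 1.62 FPKM in WT. The WT libraries stood close together and the gap to RNAi replicate 5 was small. RNAi exceeded WT by 0.40 ± 0.15 on the log2 scale (SE; adjusted p = 0.839 by limma). The other tested MPK17 genes went both ways without passing, Gh_A03G2127 with 6.46 ± 1.04 FPKM in RNAi and 5.24 ± 1.11 FPKM in WT, and Gh_D01G1468 with 3.06 ± 0.821 FPKM in RNAi and 4.45 ± 1.41 FPKM in WT. The genes furthest to the other side were Gh_D09G0061 (MPK20), with 7.22 ± 1.98 FPKM in RNAi and 10.3 ± 2.45 FPKM in WT, and Gh_D02G1080 (NTF4). The NTF4 gene had 10.9, 11.6, 3.92, 9.08 and 7.91 FPKM in RNAi and 10.96, 11.6 and 12.5 FPKM in WT, with the shallow RNAi replicate 4 lowest. Both genes are named after their values were seen.

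**Figure D3:**
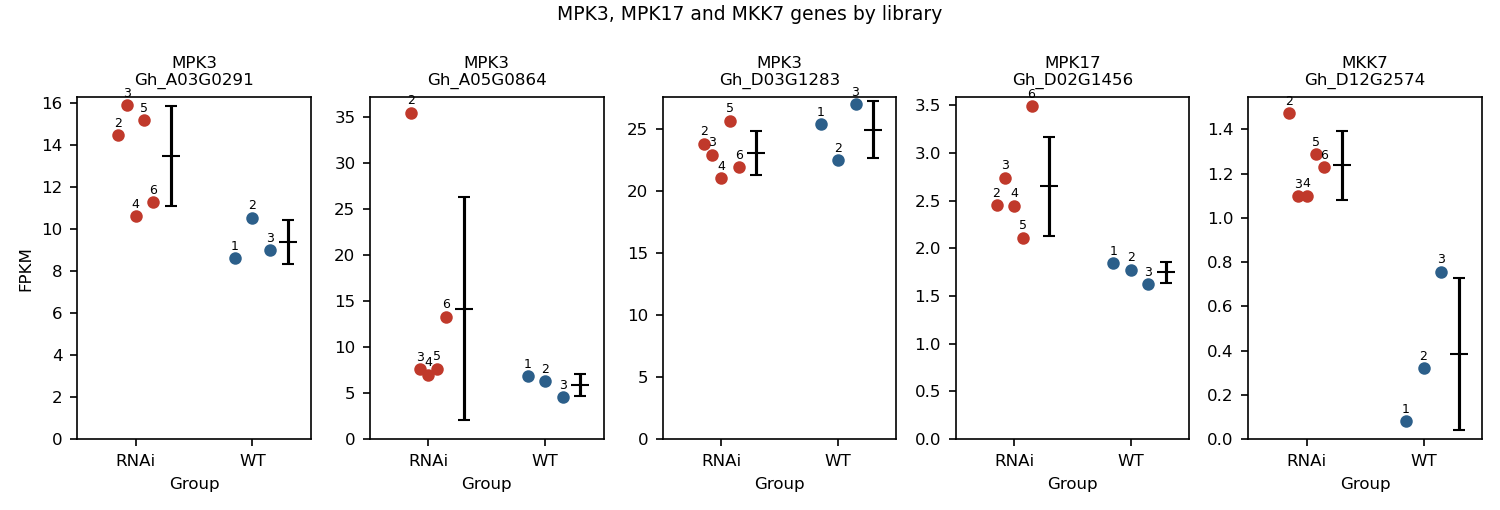
FPKM of the 3 expressed MPK3 genes, of Gh_D02G1456 (MPK17) and of Gh_D12G2574 (MKK7) in each library (points, numbered by replicate; RNAi red, left of WT blue), with the mean and SD of each group in black. The RNAi points lie above all WT points in every panel except that of Gh_D03G1283 (MPK3), and RNAi replicate 2 stands alone at 35.5 FPKM in the panel of Gh_A05G0864 (MPK3).

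The cell division branch is known from tobacco, where the kinesin NACK1 activates the MAPKKK NPK1, which signals through a relative of MKK6 to a MAPK close to NTF6 and to the microtubule bundler MAP65. Fibres at 9 DPA elongate and are not known to divide. Gh_A07G0085 (MKK6) had 6.58, 3.58, 0.815, 2.48 and 2.95 FPKM in RNAi and 3.43, 1.73 and 1.46 FPKM in WT. Gh_A05G0857 (NTF6) had 16.7, 11.3, 7.46, 11.1 and 7.86 FPKM in RNAi and 10.8, 10.998 and 11.6 FPKM in WT. RNAi replicate 2 was the highest and RNAi replicate 4 the lowest library in both genes, and the groups overlapped. In the NTF6 gene Gh_D05G3869, RNAi replicate 3 was highest (8.60 FPKM) and RNAi replicate 4 lowest (4.67 FPKM). Such extremes were not particular to this branch. Of the 55 tested kinases, RNAi replicate 2 was highest in 12 and RNAi replicate 4 lowest in 13. Log2 fold changes were 0.32 for this MKK6 gene, -0.08 for Gh_A05G0857 and -0.10 for the other NTF6 gene, Gh_D05G3869, and none passed. RNAi replicate 2 was also the highest library for the NACK1 genes Gh_D02G2190, with 26.8, 19.8, 18.4, 18.6 and 14.3 FPKM in RNAi and 11.8, 16.2 and 13.8 FPKM in WT, and Gh_A03G1757, with 10.4, 9.36, 4.07, 7.56 and 3.09 FPKM in RNAi and 3.87, 5.92 and 3.24 FPKM in WT. The other tested NACK1 genes were low and had log2 fold changes of -0.18 (Gh_A11G1639) and -0.02 (Gh_D07G0668), and none of the 4 passed. Of the 5 genes named NPK1, the MAPKKK that NACK1 activates, 1 was tested. This gene, Gh_D09G0528, was low, at 1.48 ± 0.345 FPKM in RNAi and 1.13 ± 0.472 FPKM in WT. MAP65-1 was tested in 4 genes, with means of 13.1 to 31.2 FPKM over all libraries and log2 fold changes of -0.11 to 0.01, of which 3 were negative. MAP65-3 was tested in 2 genes, with log2 fold changes of -0.63 and 0.09, and no MAP65 gene under either symbol passed. Of the 3 tested NACK2 genes, Gh_D06G2309 (NACK2) rose to 2.29, 2.61, 1.67, 2.61 and 2.45 FPKM in RNAi, against 0.539, 0.163 and 0.234 FPKM in WT. With a log2 fold change of 1.34 ± 0.17 (SE) and an adjusted p of 0.0156 by limma, it was the only call among the genes of the cascade outside the kinases examined. All 3 WT libraries lay under 1 FPKM, so the gene entered the test through its RNAi libraries alone. The other tested NACK2 genes, Gh_A13G1672 and Gh_D13G2036, had log2 fold changes of 0.17 and -0.14. It was lost when any library other than RNAi replicate 4 or WT replicate 1 was left out (adjusted p of 0.0502 without RNAi replicate 2 up to 0.128 without WT replicate 2; 0.0510 without RNAi replicate 3, 0.0629 without RNAi replicate 5, 0.0560 without RNAi replicate 6 and 0.106 without WT replicate 3).

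Upland cotton is a tetraploid with A and D subgenomes, and most genes have a copy in each. Copies were paired where a symbol had exactly 1 gene on an A chromosome and 1 on the D chromosome of the same number. This gave 29 pairs, and 22 further kinases on chromosomes were not paired. Some of these share a symbol across A and D chromosomes of different numbers, such as the NTF4 genes Gh_A03G0759 and Gh_D02G1080. Whether such genes are copies of each other was not tested, so the counts below hold only for pairs under this rule. The copies are near-identical, so a pair is uncertain where reads were split between them, and how the authors treated such reads is not given in the sources used here. Both copies were tested in 17 pairs, 1 copy in 6 and neither in 6. Of the 17, the A copy was higher in all 8 libraries in 6 pairs, the D copy in 7, and 4 were mixed. Neither subgenome led throughout these pairs. For MPK9 the A copy led on chromosome 11 (11.5 and 5.57 FPKM for A and D) and the D copy on chromosome 12 (5.82 and 11.3 FPKM).

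In the 6 pairs with 1 tested copy the other copy was too low for the filter, so a difference follows from how they were picked. Gh_A05G0864 (MPK3) averaged 11.1 FPKM over all libraries and its D counterpart Gh_D05G3876 0.189 FPKM. At 7 identifier numbers from each lie the NTF6 genes Gh_A05G0857 and Gh_D05G3869, which were both expressed, at 10.99 and 6.74 FPKM. Gh_A07G0085 (MKK6) had 2.88 FPKM and Gh_D07G0094 (MKK6) 0.0148 FPKM. Gh_A07G0124 (MKK2) had 14.0 FPKM and Gh_D07G2384 (MKK2) 0.599 FPKM. The D copy led for MPK4 on chromosome 8, with 6.10 FPKM for Gh_D08G1467 and 0.519 FPKM for Gh_A08G1183, and for MPK17 on chromosome 1, with 3.58 FPKM for Gh_D01G1468 and 0.113 FPKM for Gh_A01G2117. MMK1 on chromosome 10 was low from both copies, at 1.05 FPKM for Gh_D10G1179 and 0.402 FPKM for Gh_A10G1302.

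Whether the balance of the copies differed between groups was tested on the log2 ratio of FPKM + 1, A over D, in each library. All 56 ways of drawing 3 WT from 8 libraries were enumerated (exact permutation test, two-sided), with adjustment over the 17 pairs. The ratio was taken up after the data had been seen. No p under 0.0179 can arise, and 2 pairs reached it, each with an adjusted p of 0.152. In the MPK3 pair Gh_A03G0291 and Gh_D03G1283 the ratio was -0.75 ± 0.17 in RNAi and -1.32 ± 0.26 in WT (SD, n = 5 and 3; exact permutation). The D copy was higher in every library, by less in RNAi. In the MPK16 pair Gh_A02G0240 and Gh_D02G0309 the ratio was -0.07 ± 0.12 in RNAi and 0.29 ± 0.21 in WT (exact permutation), with the A copy higher in all 3 WT libraries and in 2 of 5 RNAi libraries. Neither pair passed after adjustment, and for the adjusted p to fall under 0.05 at least 7 of the 17 pairs would have had to reach the smallest p. The difference kept its sign in both pairs when any 1 library was left out (0.49 to 0.73 for MPK3, -0.43 to -0.24 for MPK16).

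**Figure D4:**
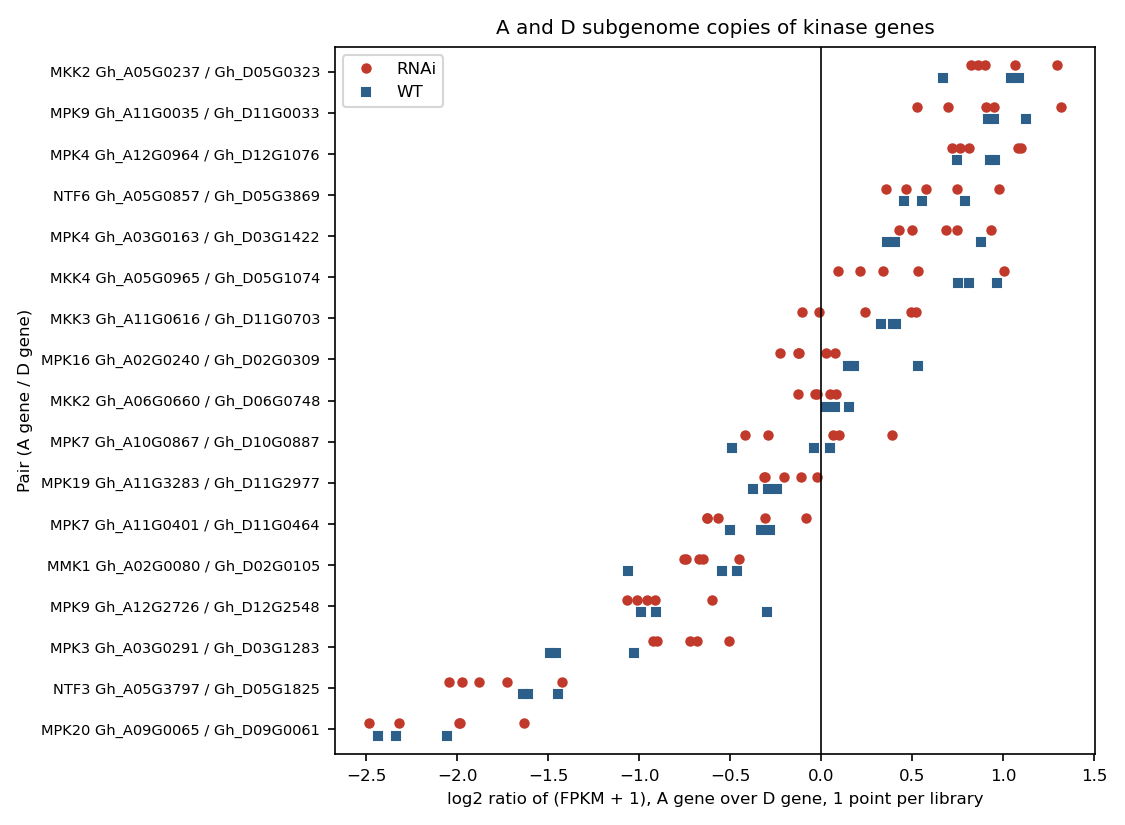
Log2 ratio of FPKM + 1 of the A gene over the D gene in each library for the 17 pairs with both copies tested (RNAi red circles, above WT blue squares; points right of 0 have the A gene higher). For MPK3 on chromosome 3 all RNAi points lie to the right of the WT points, and for MPK16 on chromosome 2 all RNAi points lie to the left of them.

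The rest of the cascade, taken from lists of symbols, held 1 call in 150 tested genes. Of all tested genes, 0.0793% were called higher and 0.0881% lower in RNAi. The 1 call, Gh_D06G2309 (NACK2), entered the test through its RNAi libraries alone. For the sign counts of the lists that follow, 46.4% of all tested genes had a positive log2 fold change. Of the MAPKKKs, 63 of 115 genes were tested, with 43 log2 fold changes positive, 20 negative and a median of 0.05. That count leaves out MTK and RAF2, symbols of other proteins (with them 72 of 125 genes were tested and 46 were positive). None passed, and 2 (3.17%, beside 5.86% of all tested genes) had an unadjusted p under 0.05 by limma. Gh_D05G1912 (YDA, the MAPKKK above MKK4 in Arabidopsis stomata) had 0.614 ± 0.198 FPKM in RNAi and 1.22 ± 0.184 FPKM in WT (limma adjusted p = 0.777). All its RNAi libraries lay under 1 FPKM, so the gene entered the test through its WT libraries alone. The abundant YDA genes Gh_D04G0218 and Gh_A05G3333 had 17.8 ± 1.55 and 16.1 ± 0.939 FPKM in RNAi, against 19.3 ± 2.39 and 18.1 ± 1.75 FPKM in WT. Gh_A07G2324 (EDR1, a Raf-like kinase of defence) had 12.01 ± 3.12 FPKM in RNAi and 8.40 ± 1.63 FPKM in WT (limma adjusted p = 0.844). The EDR1 gene Gh_D05G0436 (EDR1) had 6.79 ± 0.446 FPKM in RNAi and 5.25 ± 1.43 FPKM in WT (limma adjusted p = 0.860). MEKK1, which stands above MKK2 and MPK4 in Arabidopsis, was tested in 4 genes, with log2 fold changes from -0.13 to 0.16.

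Phosphatases that switch MAPKs off were tested in 13 of 22 genes, with 8 log2 fold changes positive, 5 negative and a median of 0.14. None passed. Gh_A09G1095 (PTP1, a tyrosine phosphatase) had 8.55 ± 1.06 FPKM in RNAi and 6.60 ± 0.662 FPKM in WT (limma adjusted p = 0.840). Gh_D09G2401 (PHS1) had 3.63 ± 1.39 FPKM in RNAi and 2.10 ± 0.959 FPKM in WT, and Gh_A11G1408 (IBR5) 5.48 ± 1.23 FPKM in RNAi and 3.48 ± 2.30 FPKM in WT (limma adjusted p = 0.845 for each). MKP1, the phosphatase that restrains MPK3 and MPK6 in Arabidopsis, was tested in 3 of 10 genes, with group means of 2.04 FPKM or less.

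Receptors and coreceptors that feed the cascade were tested in 36 of 125 genes (without ERLIN2, a protein of like symbol), with 24 positive, 12 negative and a median of 0.07. BAK1, the shared coreceptor of many receptor kinases, was the most abundant, led by Gh_D05G3884 at 88.6 ± 7.07 FPKM in RNAi and 98.0 ± 18.5 FPKM in WT. CERK1, the chitin receptor, reached 38.1 ± 4.39 FPKM in RNAi and 43.3 ± 5.69 FPKM in WT in Gh_A11G0416. The flagellin receptor FLS2 was tested in 1 of 11 genes, and 6 of the 11 were at 0 in every library. The lowest p was that of Gh_A12G0175 (SERK2), at 1.87 ± 1.16 FPKM in RNAi and 0.660 ± 0.270 FPKM in WT (limma adjusted p = 0.839), followed by the HSL1 genes Gh_D05G1510 and Gh_D10G0261 (limma adjusted p = 0.864 and 0.877). All WT libraries of the SERK2 gene lay under 1 FPKM, so it entered the test through its RNAi libraries alone. Targets and partners of MAPKs were tested in 38 of 84 genes, with 20 positive, 18 negative and a median of 0.01. Beside NACK2, the lowest p values were those of Gh_D02G2190 (NACK1; limma adjusted p = 0.840) and of Gh_D08G0312 (EIN3, the master regulator of ethylene responses). The EIN3 gene had 25.8 ± 3.58 FPKM in RNAi and 43.3 ± 23.9 FPKM in WT (limma adjusted p = 0.844), with WT replicate 3 alone at 70.7 FPKM, and its log2 fold change went to -0.19 without that library, against -0.61 with it. Genes named WRKY, the class that MAPKs are known to phosphorylate, were tested in 62 of 246 genes, with 20 positive, 42 negative and a median of -0.11, and 0 passed. By limma, 7 of the 62 (11.3%, beside 5.86% of all tested genes) had an unadjusted p under 0.05. In 6 of the 62 the RNAi libraries all lay below the WT libraries (beside 2.35% of all tested genes), and in 0 all above (beside 1.72%). The silenced gene is itself a WRKY gene and may be among those named here.

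**Figure D5:**
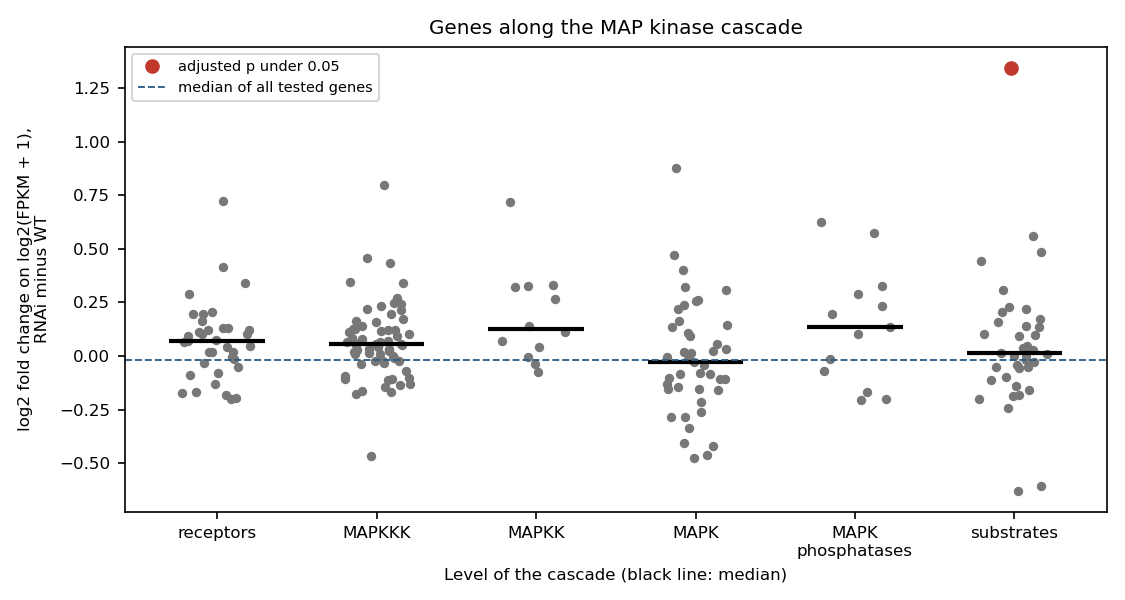
Log2 fold change, RNAi minus WT, on the log2(FPKM + 1) scale for the tested genes at each level of the cascade (1 point per gene, black line at the median of the list, dashed line at the median of all tested genes; the column named substrates holds targets and partners). Medians lie between -0.03 (MAPK) and 0.14 (phosphatases), and the red point is Gh_D06G2309 (NACK2), the only gene past the threshold.

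The genes named NTF2 were far more abundant than any kinase. The 6 that were tested had means of 183 to 437 FPKM, and the other 4 had at most 1.44 FPKM. Plant MKK3 is known to carry a domain of the NTF2 type, but the MKK3 genes have their own symbol and lie elsewhere. Gh_D05G2989 (NTF2) had 322, 431, 383, 479 and 496 FPKM in RNAi and 546, 413 and 424 FPKM in WT, a log2 fold change of -0.13 (95% interval -0.49 to 0.22). It was -0.006 without WT replicate 1, -0.04 without RNAi replicate 2 and -0.21 without WT replicate 2. Gh_A01G1277 (NTF2) had a log2 fold change of -0.11 (-0.34 to 0.12), Gh_A05G2691 (NTF2) of -0.18 (-0.55 to 0.20) and Gh_D01G1498 (NTF2) of -0.14 (-0.38 to 0.09). Without RNAi replicate 2 these were -0.06 for Gh_A01G1277, -0.07 for Gh_A05G2691 and -0.08 for Gh_D01G1498, and without WT replicate 3 -0.07 for Gh_A01G1277 and -0.09 for Gh_D01G1498. Gh_D02G1507 (NTF2) stood at 0.01 and Gh_A03G2124 (NTF2) at 0.04, and both turned negative with array weights, without RNAi replicate 4 or without WT replicate 3. The groups overlapped in all 6 genes, and their limma adjusted p values were 0.882 or higher.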

How the data were processed

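RNA-seq of cotton fibre at 9 DPA was analysed in 5 RNAi and 3 WT libraries. FPKM per gene and library were computed by the authors and deposited as 1 table. The submitters' processing notes list the tools FastQC, HISAT2 and DESeq 1.10.1 with no role. Read counter, genome build and annotation: not given in the sources used here. Columns were matched to samples by group and replicate number. The 34051 genes that reached 1 FPKM in 3 or more libraries entered a limma fit of log2(FPKM + 1) (limma 3.58.1, R 4.3.3; moderated with a trend; two-sided; threshold 0.05 after Benjamini-Hochberg adjustment over these genes), which was tested on simulated data. Fold changes on this scale understate those of low genes.

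Relative depth came from low values (under 0.5 FPKM), where ratios between libraries fall on ratios of up to 4 reads, within 0.01 on the log2 scale, for 49.5% to 70.3% of genes. Named in full were genes with an unadjusted p under 0.05, genes whose groups did not overlap, the 6 most abundant (all NTF2) and, added after seeing the data, the 6 most abundant kinases. Up to 3 genes of lowest p were named from each other list. Members and lists were chosen with earlier results of these data known. A list of MAPKs under other names found 0 genes. The reference table held 0 of the identifiers, so no coordinates or sequences are given. Alternatives were other pseudocounts, filters, scalings, weights, no trend, a replicate block and each library left out.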

Additional observations from a re-analysis of the deposited data

Results flagged for a closer look

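In the 5 RNAi libraries, 1 library stood apart from the other 4 in 5 of the 61 tested genes, by a gap to its neighbour that made up more than 0.71 of the whole range. The cut flags about 1 in 20 such groups where values are normally distributed, which FPKM need not be. The share over all tested genes is not given, so the 5 of 61 are a description. RNAi replicate 2 was the library in 3 of the 5. It had 35.5 FPKM of Gh_A05G0864 (MPK3), where the next library had 13.3 FPKM, and 1.78 FPKM of Gh_A05G3797 (NTF3), where the next had 1.07 FPKM. It was the lowest, at 231 FPKM, for Gh_D01G1498 (NTF2), where the next had 280 FPKM. RNAi replicate 4, the shallowest library, had 1.43 FPKM of Gh_D10G1179 (MMK1), where the next had 0.764 FPKM, and 10.3 FPKM of Gh_A07G1297 (MPK4), where the next had 5.95 FPKM.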

How the results depend on the processing

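Under all 17 alternatives no MAPK, MAPKK or NTF2 gene passed the threshold, and no named gene gained a call. Of the 28 named genes, 25 kept their sign in every alternative. Gh_D02G1507 (NTF2) turned to -0.0394 with array weights and -0.0408 with the replicate block, and lay between -0.0843 and 0.0663 with single libraries left out (below 0 without RNAi replicate 4, RNAi replicate 6 or WT replicate 3). Gh_A03G2124 (NTF2) turned to -0.0519 with array weights and -0.16 with the replicate block, and lay between -0.0369 and 0.124 with single libraries left out (below 0 without RNAi replicate 4 or WT replicate 3). Gh_A06G0660 (MKK2) turned to -0.0106 with array weights, and lay between -0.0771 and 0.124 with single libraries left out (below 0 without RNAi replicate 2 or WT replicate 1). The cause was not tested.

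The number of genes under the rule with an unadjusted p under 0.05, 3 as reported, was 6 with no filter (of 84 then tested), 1 with a filter at 5 FPKM and 5 with array weights, and 2 to 6 with single libraries left out (6 in the absence of RNAi replicate 4). The number of all genes past the threshold, 57 as reported, was 35 with a pseudocount of 0.01, 36 with a filter at 5 FPKM and 88 with array weights, and 33 to 58 with single libraries left out, lowest when either WT replicate 2 or 3 was missing and highest in the absence of RNAi replicate 4; it was also under 38 in the absence of RNAi replicate 2 (37) or 5 (34). Of the cascade outside the kinases 1 gene passed (NACK2), 0 with a filter at 5 FPKM, where it was not tested, and 0 to 1 with single libraries left out. Libraries of the same replicate number did not deviate together in both shared numbers (correlation of deviations from the group mean 0.35 for replicate 2 and -0.09 for replicate 3). With the replicate block, which leaves little residual freedom, 313 genes passed, and 10 of 61 genes under the rule had an unadjusted p under 0.05 (16.4%, beside 15.98% of all genes). Only replicates 2 and 3 are in both groups, so fold changes in that fit rest on those libraries alone. The lowest limma adjusted p among the 61 genes in that fit was 0.0774. There the MPK7 genes stood at -0.73 (Gh_A11G0401) and -0.50 (Gh_D11G0464), with limma adjusted p of 0.133 and 0.212. Gh_A05G0864 (MPK3) moved to 1.48 (limma adjusted p = 0.139). Depth limits the low genes most: 6 of the 55 tested kinases averaged under 2 FPKM.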
